A study of Mus musculus with 4 samples.

Results

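The protein-coding genes that lie around Smad4 on mouse chromosome 18 were followed in colonic epithelial cells with and without Smad4. The members were the rows of the deposited count table for protein-coding genes that start between 63639009 and 83703780 (GRCm38), 10 Mb to each side of Smad4. Smad4 itself and 6 genes (Smad2, Smad7, Pmaip1, Acaa2, Atp5a1 and Kcng2) were left out, which gave 97 of the 31227 genes in the table, 48 at lower and 49 at higher coordinates than Smad4. The interval and gene type define the rule, which names the 6 genes to leave out, and 2 of these passed the test used below (Acaa2 rose and Smad7 fell). RNA sequencing compared 2 wild-type (WT) libraries, replicates 1 and 3, with 2 libraries of an epithelial Smad4 knockout (KO), replicates 1 and 2. Mice of both genotypes were 8 to 10 weeks old and were given water with 3.5% dextran sulfate sodium (DSS), which damages the lining of the colon, for 5 days, then plain water until they were killed on day 7. All 4 libraries thus come from DSS-treated mice, and none shows the genes without DSS. No source used here states the strain, the origin of the Smad4 allele, the Cre driver or whether the libraries of a genotype are separate mice. The p-values therefore measure only how these 4 libraries vary, and that variation may be technical.

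TGF-β and BMP receptors phosphorylate Smad proteins that pair with Smad4 and then regulate genes in the nucleus. Genes close together on a chromosome are inherited together, so mice bred for an engineered allele usually keep some of the DNA that flanked it in the cells where it was made. Neighbouring genes can also share enhancers and chromatin domains. In people the long arm of chromosome 18, which holds SMAD4 and the netrin receptor gene DCC, is often lost in colorectal cancer. The interval in the mouse holds genes of unrelated function, from lipases and malic enzyme to motors of apical transport and zinc finger proteins. In this comparison any effect of the missing Smad4 protein and any effect of DNA near the allele cannot be told apart.

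Smad4 was lower in both libraries labelled KO. Its normalised read count (CPM) was 152 and 179.8 in WT against 51.5 and 41.1 in KO (log2 change KO against WT -1.84 with an SE of 0.143, edgeR adjusted p = 0.00163). CPM here are counts scaled to library size with TMM factors, and every log2 change is KO against WT. The libraries held 42577920 to 67927291 counts. Epithelial markers were abundant in all of them, with a summed level of 18567 to 19885 CPM for 10 genes, of which 5 rose and 1, the keratin gene Krt19, fell. Markers of other cells were present too. Summed neutrophil markers were at 103 to 130 CPM in WT, against 431 to 442 CPM in KO, and 6 of the 8 markers rose. Ly6g made up most of that sum, and the other 7 summed to 9.75 to 13.6 CPM in WT, against 112 to 113 CPM in KO. Of 8 macrophage markers 2 rose, Lyz2 and Csf1r. Their sum (171 to 192 CPM in WT, 168 to 173 CPM in KO) was mostly Cd14, at 159 and 181 CPM in WT, with 136 and 134 CPM in KO. The other 7 macrophage markers summed to 10.4 to 12.2 CPM in WT, against 34.4 to 36.7 CPM in KO. Of 8 T cell markers 1 rose (6.51 to 7.62 CPM, 14.1 to 14.3 CPM), and of 8 fibroblast markers, 6 of them tested, 2 rose (26.6 to 26.7 CPM, 51.8 to 57.3 CPM). In the enteric neuron and glia list 1 of 5 tested markers rose, the receptor kinase Ret, while the glial marker Sox10 had no count in any library (8 markers, 7.98 to 8.38 CPM in WT and 20.2 to 21.6 CPM in KO). Without Ret that sum was 2.36 to 3.03 CPM in WT, with 1.43 to 1.48 CPM in KO. Of 2 tested B and plasma cell, 4 endothelial and 5 smooth muscle markers none passed in edgeR, DESeq2 or limma-voom, and 1, a smooth muscle marker, had an unadjusted p under 0.05. The part that these other cells have in the results below was not tested, and in bulk RNA fewer cells of a type and less RNA per cell cannot be told apart.

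Most tested neighbours of Smad4 differed little between the genotypes, and some of the nearest differed more. Of the 97 neighbours, 68 had enough counts to be tested. In edgeR's quasi-likelihood test, with p-values adjusted over all 15838 tested genes, 3 neighbours rose in KO (Mex3c, Gnal and 4930503L19Rik) and 6 fell (Me2, Mbd1, Lipg, Pias2, St8sia5 and Mppe1), at an adjusted p under 0.05. These 9 are 13.2% of the tested neighbours, near the 15.2% called among all tested genes, where 8.83% rose and 6.4% fell. The share called in the interval was thus not above the background. It was also near that of the rest of chromosome 18, where 50 of 289 tested protein-coding genes passed (17.3%), and near that of the other chromosomes, where 2289 of 14072 did (16.3%). Requiring a change of at least 1.5-fold as well left 8 neighbours, all but Mppe1, against 10.4% of all tested genes. The median log2 fold change was 0.01 over the tested neighbours and 0.01 over all tested genes, and 44 of the 68 differed by less than 0.25 in either direction. The 2 genotypes did not overlap in 40 of the 68 neighbours (22 higher and 18 lower in KO), against 59.4% of all tested genes. With 2 libraries per genotype, non-overlap is thus common and says little of a single gene.

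The genes that passed were unevenly placed. Distance was taken from a gene's lowest coordinate to the nearer end of the Smad4 model. Under 1 Mb from Smad4, 3 of 8 tested neighbours passed (37.5%), followed by 1 of 6 at 1 to 2.5 Mb (16.7%), 3 of 15 at 2.5 to 5 Mb and 2 of 39 at 5 to 10 Mb (5.13%). Within 5 Mb the count was 7 of 29 (24.1%), which is above the 15.2% of all tested genes, while beyond 5 Mb it was below. Without KO replicate 1 or without KO replicate 2 these counts were 4 within 5 Mb and 1 beyond, when 5.8% and 6.02% of all tested genes passed. The median size of the log2 fold change was 0.46 under 1 Mb, 0.14 at 1 to 2.5 Mb, 0.25 at 2.5 to 5 Mb and 0.13 beyond, against 0.27 over all tested genes. Of the 8 genes under 1 Mb, Mapk4 had the largest size of change and raises their median. Its log2 change of -0.78 had an SE of 0.934, at 5 to 10 counts per library. The difference between the distance classes was not tested, and each rests on few genes. Across the 68 neighbours, which share the same 4 libraries, the size of the change and the distance had a Spearman rho of -0.32 and a Pearson r of -0.20. The mean level had a rho of 0.06 with distance. Within 5 Mb both neighbours that edgeR called as risen (of 7 tested) lie at lower coordinates and the 5 called as fallen (of 22 tested) at higher ones. This split by side did not hold in every setting. It was unchanged in edgeR with upper-quartile or total normalization or DESeq2 size factors. DESeq2's Wald test also called Rab27b as lower on the left (adjusted p = 0.0494). It called Myo5b and Pstpip2 as higher on the right (adjusted p = 0.0221 and 0.0112). Pstpip2 was also called by limma-voom and by edgeR with no filter on low counts. Among the genes left out, Acaa2, an enzyme of mitochondrial fatty acid oxidation, rose at 1.08 Mb on the right (log2 change 0.54 with an SE of 0.0621, edgeR adjusted p = 0.00542). Smad7, also left out, fell at 1.66 Mb on the right (log2 change -0.65 with an SE of 0.0997, edgeR adjusted p = 0.0131). Both lie at 1 to 2.5 Mb, so the lower share and median of that class depend on the genes left out. On the far right, at 5 to 10 Mb, edgeR, DESeq2 and limma-voom called none of 14 tested genes. Over all tested genes they called 15.2%, 21.8% and 16.7%. The unadjusted edgeR p was under 0.05 for 2 of the 14, beside 4738 of all 15838 tested genes. The plots of change and of share by distance show this spread.

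**Figure D1:**
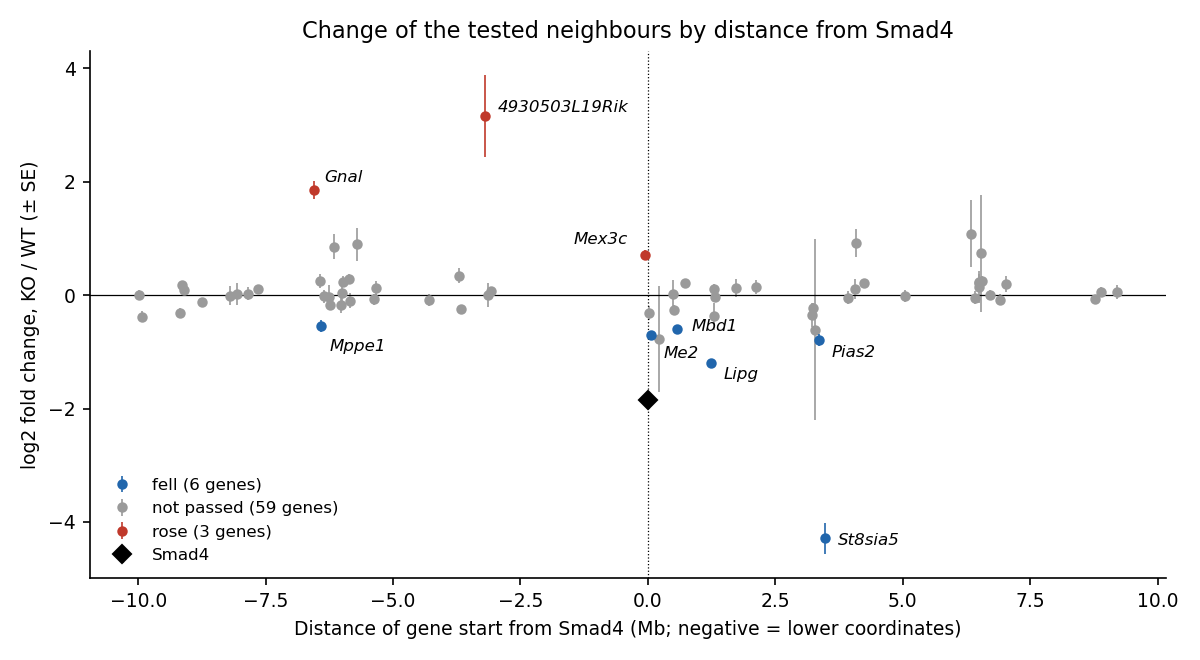
Log2 fold change of KO against WT (y axis, bars are ± SE) of the 68 tested neighbours against the distance of the gene start from Smad4 in Mb (x axis); red genes rose, blue fell, grey did not pass an edgeR adjusted p of 0.05, and the black diamond is Smad4. Within 5 Mb the genes that fell all lie to the right of Smad4, and at 5 to 10 Mb Gnal and Mppe1 are the genes that passed.

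**Figure D2:**
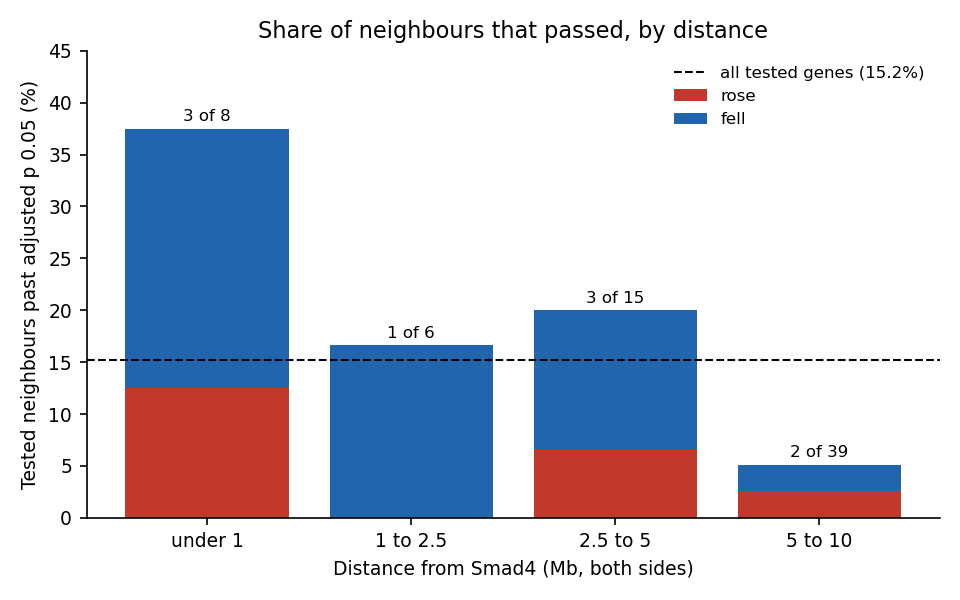
Share of tested neighbours past an edgeR adjusted p of 0.05 (y axis, percent) in 4 classes of distance from Smad4 (x axis, Mb, both sides), split into genes that rose and fell, with the number called of the number tested above each bar. The share is 37.5% under 1 Mb and 5.13% at 5 to 10 Mb, and the dashed line marks the 15.2% of all tested genes.

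Of the 3 genes nearest Smad4, Mex3c rose, Me2 fell and Elac1 did not pass. On the side of the lower coordinates, 66.0 kb away, lies Mex3c (ENSMUSG00000037253, plus strand, 73573044 to 73592575), which encodes an RNA-binding ubiquitin ligase. Mex3c had 46.4 and 48.3 CPM in WT and 79.3 and 75.9 CPM in KO. Both KO libraries were higher, and the gene rose 1.64-fold (47.3 ± 1.40 to 77.6 ± 2.42 CPM, SD, n = 2 each; log2 change 0.71 with an SE of 0.0748, edgeR adjusted p = 0.00410). On the other side the nearest gene is Elac1, a tRNA-processing endonuclease, 31.3 kb from the Smad4 model. Its level was 27.1 and 22.9 CPM in WT, against 19.8 and 20.3 CPM in KO, and the difference did not pass (log2 change -0.32 with an SE of 0.122, edgeR adjusted p = 0.154). Both WT libraries of Elac1 were above both KO libraries. Next to Elac1 lies Me2, the mitochondrial malic enzyme that turns malate into pyruvate (ENSMUSG00000024556, minus strand, 73769903 to 73815449, 66.1 kb away). Me2 was at 205 and 197 CPM in WT and at 122 and 124 CPM in KO. It fell 1.63-fold (201 ± 6.14 to 123 ± 1.34 CPM; log2 change -0.71 with an SE of 0.0620, edgeR adjusted p = 0.00231), with wide separation of the genotypes.

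Further out within 1 Mb, the gene for the mitotic kinetochore protein Ska1 was at 3.53 and 4.82 CPM in WT and 3.93 and 4.56 CPM in KO, with overlapping genotypes (log2 change 0.03 with an SE of 0.245). The atypical kinase gene Mapk4 had 10 and 8 counts in WT and 8 and 5 in KO, too few to show a change of moderate size (log2 change -0.78 with an SE of 0.934). Mro and Cfap53 had 24 counts each over all libraries and Gm9925 had none, so none of the 3 was tested. On the far side of Mex3c there is no other member until Dcc, the netrin receptor gene (minus strand, 71253634 to 72351069). Its lowest coordinate lies 2.39 Mb from Smad4, its upper end lies nearer, and it had no count in any library. The next tested genes on that side were Mbd2, Poli, 4930503L19Rik and Rab27b. Poli, a translesion DNA polymerase, was at 6.38 and 5.67 CPM in WT, against 6.84 and 5.19 CPM in KO, and the genotypes overlapped. 4930503L19Rik, a gene model without a named function (ENSMUSG00000044906, minus strand, 70452212 to 70472509, 3.19 Mb away), had 4 and 5 counts in WT and 59 and 46 in KO. It rose 8.95-fold (0.0926 ± 0.0312 to 0.835 ± 0.206 CPM; log2 change 3.16 with an SE of 0.723, edgeR adjusted p = 0.0444) at a level below 1 CPM. Its exons share a short stretch with Stard6, which had 5 counts in all. The call was lost when any 1 of the 4 libraries was left out (edgeR adjusted p up to 0.255) and by limma-voom (adjusted p = 0.0698).

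Among 13 neighbours with roles in metabolism and mitochondria, 9 were tested, 3 fell and none rose, beside 15.2% called and 6.4% fallen among all tested genes. Besides Me2 they are Lipg and Mppe1, enzymes of other pathways. Lipg encodes endothelial lipase, a secreted phospholipase that acts on high-density lipoprotein (ENSMUSG00000053846, minus strand, 74939322 to 74961263, 1.24 Mb from Smad4). It was at 96.1 and 97.5 CPM in WT and at 42.5 and 42.1 CPM in KO. The libraries of each genotype nearly coincided, and the gene fell 2.29-fold (96.8 ± 0.969 to 42.3 ± 0.214 CPM; log2 change -1.19 with an SE of 0.0681, edgeR adjusted p = 0.000670). Mppe1 encodes a phosphoesterase that trims the lipid anchor of GPI-linked proteins (ENSMUSG00000062526, minus strand, 67225043 to 67245830, 6.41 Mb away). It had 22.5 and 22.9 CPM in WT and 15.8 and 15.2 CPM in KO, a fall of 1.46-fold (log2 change -0.55 with an SE of 0.102, edgeR adjusted p = 0.0240). Leaving out WT replicate 3, KO replicate 1 or KO replicate 2 ended this call (edgeR adjusted p up to 0.167). Ferrochelatase, Fech, the last enzyme of heme synthesis, was at 58.3 and 62.5 CPM in WT and 50.0 and 46.6 CPM in KO, with no overlap, and did not pass (log2 change -0.32 with an SE of 0.0849, edgeR adjusted p = 0.0652). The other 5 tested members were the inositol phosphatase gene Impa2, Afg3l2, which encodes a protease of the inner mitochondrial membrane, and Hdhd2, Fam210a and Rbfa. They had log2 fold changes of -0.23 (Hdhd2) to 0.22 (Rbfa).

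St8sia5 showed the largest fold change of all tested neighbours. It encodes a sialyltransferase that adds sialic acid to gangliosides, the sialylated glycolipids of the cell surface (ENSMUSG00000025425, plus strand, 77185839 to 77258771, 3.48 Mb away). Its level was 26.9 and 24.2 CPM in WT, and 1.65 and 0.974 CPM in KO. Little was left in KO, and the gene fell 19.6-fold (25.6 ± 1.87 to 1.31 ± 0.476 CPM; log2 change -4.29 with an SE of 0.272, edgeR adjusted p = 0.000862). That is more than the 3.59-fold fall of Smad4 in the same libraries. Antisense to it lies Gm7276, whose exons overlap. Another sialyltransferase gene of the interval, St8sia3, lies at its far left end and had no count in any library. Pias2, which begins 3.36 Mb from Smad4 and next to St8sia5 (ENSMUSG00000025423, plus strand, 77065208 to 77153800), encodes a SUMO ligase that binds STAT and other transcription factors. It had 53.4 and 61.4 CPM in WT and 33.2 CPM in each KO library, and fell 1.73-fold (57.4 ± 5.64 to 33.2 ± 0.0230 CPM; log2 change -0.79 with an SE of 0.101, edgeR adjusted p = 0.00744). Without KO replicate 1 the edgeR adjusted p of Pias2 was 0.0650, and without KO replicate 2 it was 0.0571. Katnal2, just before Pias2, had 0 to 13 counts per library. Before it, Hdhd2 was at 27.3 and 28.5 CPM in WT and 23.1 and 24.4 CPM in KO (edgeR adjusted p = 0.189). After St8sia5, Loxhd1 and Rnf165 had no count and 5 counts, and 8030462N17Rik had overlapping genotypes at 14.4 to 16.0 CPM.

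**Figure D3:**
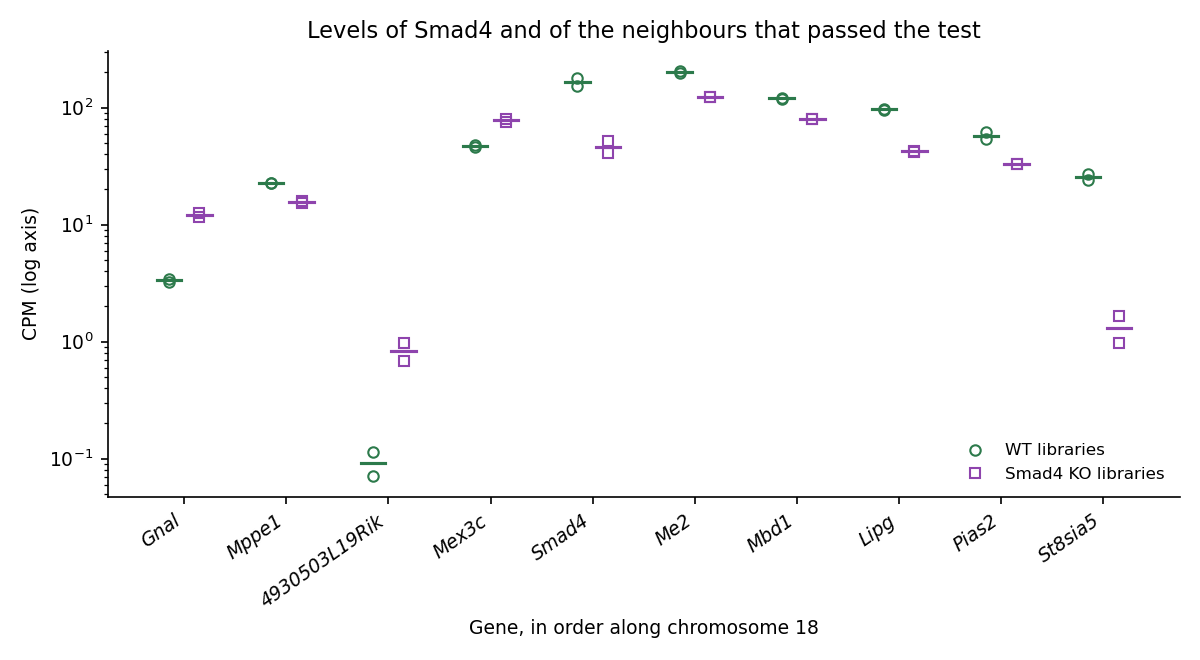
Level of Smad4 and of the 9 neighbours that passed the test, in CPM on a log axis (y axis), in the order of the genes along chromosome 18 (x axis); circles are the WT libraries, squares the KO libraries and bars the mean of 2 libraries. The genotypes do not overlap in any of the 10 genes, but the 9 neighbours were picked by a test on these same libraries. Over all tested genes 59.4% do not overlap. St8sia5 shows the widest gap, with 24.2 CPM or more in WT and 1.65 CPM or less in KO.

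Of 12 neighbours with roles in signalling and ubiquitin transfer, 8 were tested, 2 rose and none fell, beside 15.2% called and 8.83% risen among all tested genes. They were Mex3c and Gnal. Gnal encodes the alpha subunit of the G protein that couples odorant and dopamine receptors to adenylyl cyclase (ENSMUSG00000024524, plus strand, 67088216 to 67226792, 6.55 Mb away). It had 3.26 and 3.46 CPM in WT and 11.6 and 12.6 CPM in KO. Each KO library was far above both WT libraries, and the gene rose 3.59-fold (3.36 ± 0.143 to 12.1 ± 0.694 CPM; log2 change 1.85 with an SE of 0.157, edgeR adjusted p = 0.00212). The end of Gnal shares exon sequence with Mppe1 on the opposite strand. No source used here states whether the counting used strand, so reads from the shared stretch cannot be assigned. The part of this stretch in the rise of Gnal and the fall of Mppe1 was not tested.

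The other named signalling genes did not pass in edgeR. Pstpip2, an adaptor protein of myeloid cells that restrains inflammation, had 5.41 and 8.58 CPM in WT and 14.1 and 12.4 CPM in KO (log2 change 0.92 with an SE of 0.246, edgeR adjusted p = 0.0666). It passed by DESeq2 (adjusted p = 0.0112), by limma-voom (adjusted p = 0.0397) and in edgeR with no filter on low counts (adjusted p = 0.0359). It also passed without WT replicate 3 (edgeR adjusted p = 0.0190). In the same libraries the summed neutrophil markers were at 103 to 130 CPM in WT, against 431 to 442 CPM in KO, and their part in this difference was not tested. Ldlrad4, which encodes a membrane protein that restrains TGF-β signalling by binding receptor-activated Smads, was at 1.29 and 1.49 CPM in WT and 2.76 and 2.41 CPM in KO (log2 change 0.90 with an SE of 0.293, edgeR adjusted p = 0.109). Its exons overlap those of Fam210a on the other strand. Nedd4l, the ubiquitin ligase that removes the epithelial sodium channel from the cell surface, had 109 and 116 CPM in WT and 104 and 103 CPM in KO (log2 change -0.12 with an SE of 0.0683, edgeR adjusted p = 0.320). Ptpn2, a phosphatase that switches off JAK and STAT signalling, was at 27.2 and 27.1 CPM in WT and 31.0 and 33.0 CPM in KO (log2 change 0.23 with an SE of 0.0952, edgeR adjusted p = 0.176). Malt1, the paracaspase of NF-κB activation, was at 26.0 to 35.5 CPM and its genotypes overlapped.

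Of 14 neighbours that encode transcription and chromatin proteins, 11 were tested, 1 fell and none rose, against the same background of 15.2% called. The one that fell was Mbd1, a protein that binds methylated CpG sites and represses transcription (ENSMUSG00000024561, plus strand, 74267605 to 74282732, 564 kb from Smad4). Mbd1 was at 119 and 120.1 CPM in WT and at 79.1 and 79.6 CPM in KO. The spread within each genotype was under 1 CPM, and the gene fell 1.51-fold (119.7 ± 0.587 to 79.4 ± 0.292 CPM; log2 change -0.59 with an SE of 0.0632, edgeR adjusted p = 0.00430). Without KO replicate 2 the edgeR adjusted p was 0.0516. Next to it Cxxc1, the subunit that brings a histone H3 lysine methyltransferase complex to unmethylated CpG sites, had 85.6 and 79.0 CPM in WT and 66.5 and 70.8 CPM in KO. It did not pass in edgeR (log2 change -0.26 with an SE of 0.0793, adjusted p = 0.0916) and passed by DESeq2 (adjusted p = 0.0385). Mbd2, a relative of Mbd1 that also binds methylated CpG sites, lies on the other side of Smad4 and had 179.5 and 161 CPM in WT and 179.6 and 179 CPM in KO. The genotypes of Mbd2 overlapped (log2 change 0.07 with an SE of 0.0749). Zbtb7c, a zinc finger protein, was at 22.7 and 27.5 CPM in WT and 28.1 and 27.6 CPM in KO (log2 change 0.15 with an SE of 0.126, edgeR adjusted p = 0.508). The remaining 7 tested members, Tcf4, Zfp532, Zfp236, Zfp516, Setbp1, Nfatc1 and Adnp2, had log2 fold changes of -0.09 (Tcf4) to 0.05 (Zfp516). All 7 thus differed by less than Zbtb7c did. Onecut2, a transcription factor of liver and neurons, had 0 and 0 counts in WT and 18 and 4 in KO and was not tested.

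Genes of membrane traffic and secretion showed differences of at most 0.85 on the log2 scale. Of 14, 12 were tested and none passed in edgeR, beside 15.2% of all tested genes. An unadjusted p under 0.05 was found for 4, beside 4738 of all 15838 tested genes. DESeq2 called 4, beside 21.8% of all tested genes, and limma-voom called none, beside 16.7%. Myo5b encodes the myosin that carries recycling vesicles to the apical membrane of enterocytes and begins 737 kb from Smad4. It was at 297 and 284 CPM in WT and 335 and 336 CPM in KO (log2 change 0.21 with an SE of 0.0560, edgeR adjusted p = 0.0678). Both KO libraries were higher, and Myo5b was among the 4 that DESeq2 called (adjusted p = 0.0221). Wdr7, a regulator of the vacuolar proton pump at the left end of the interval, was at 30.7 and 32.1 CPM in WT and 23.2 and 25.2 CPM in KO (log2 change -0.38 with an SE of 0.101, edgeR adjusted p = 0.0676). The actin nucleator gene Spire1 had 3.51 and 2.78 CPM in WT and 5.36 and 6.03 CPM in KO (log2 change 0.85 with an SE of 0.222, edgeR adjusted p = 0.0621). Rab27b, a GTPase that docks secretory vesicles, was at 65.3 and 62.0 CPM in WT and 55.0 and 52.3 CPM in KO (log2 change -0.25 with an SE of 0.0779, edgeR adjusted p = 0.0988). These 4, named for their small p, did not overlap between the genotypes, and neither did 59.4% of all tested genes. Atp8b1, the apical phospholipid flippase, had 528 and 597 CPM in WT and 606 and 598 CPM in KO (log2 change 0.10 with an SE of 0.0718, edgeR adjusted p = 0.434), a difference smaller than that between the WT libraries.

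All 9 neighbours with roles in making RNA and protein were tested. Of these none passed in edgeR, DESeq2 or limma-voom, beside 15.2%, 21.8% and 16.7% of all tested genes. An unadjusted p under 0.05 was found for 3, beside 4738 of all 15838 tested genes. Seh1l, a nucleoporin, was at 65.4 and 60.1 CPM in WT and 79.6 and 72.9 CPM in KO (log2 change 0.28 with an SE of 0.0858, edgeR adjusted p = 0.0932). The asparaginyl-tRNA synthetase gene Nars had 216 and 199.8 CPM in WT and 237 and 234 CPM in KO (log2 change 0.18 with an SE of 0.0654, edgeR adjusted p = 0.138). Rnmt, which methylates the messenger RNA cap, was at 24.1 and 23.4 CPM in WT and 28.1 and 23.7 CPM in KO, with overlap. Among 9 genes of the cytoskeleton and cell division 7 were tested. None passed in edgeR, DESeq2 or limma-voom, beside the same shares of all tested genes. None had an unadjusted p under 0.05, beside 4738 of all 15838 tested genes. The centrosome gene Cep192 was at 44.8 and 52.6 CPM in WT, with 49.3 and 41.6 CPM in KO. The centriole gene Cep76 had 9.89 and 11.2 CPM in WT, with 9.35 and 9.25 CPM in KO. The spindle gene Haus1 had 7.35 and 6.90 CPM in WT, with 8.35 and 7.01 CPM in KO. In each of these 3 genes the difference between the genotype means was smaller than the widest gap between libraries of 1 genotype. The polarity gene Pard6g was at 0.776 and 0.298 CPM in WT and 1.13 and 1.17 CPM in KO (log2 change 1.08 with an SE of 0.593, edgeR adjusted p = 0.297).

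Hormone and guidance genes of the interval were at or near 0. None of the 6 (Mc2r, Mc4r, Mc5r, Grp, Galr1 and Dcc) could be tested. The receptor genes Mc4r and Galr1 had 27 and 30 counts over the 4 libraries, while the peptide gene Grp, the melanocortin receptor genes Mc2r and Mc5r and Dcc had none. In all, 13 neighbours had no count in any library, which allows up to 0.0450 to 0.0688 CPM per library (3 counts, counting error only). The others without a count were St8sia3, Rax, Cplx4, Gm9925, Skor2, Loxhd1, Siglec15, Slc14a2 and Gm21886. They include the retinal transcription factor gene Rax, the kidney urea transporter gene Slc14a2 and the inner ear gene Loxhd1. Another 16 had between 5 and 52 counts in all and were not tested. Some of them had counts in 1 library only, such as Sall3 with 8 in WT replicate 1 and Dynap with 8 in KO replicate 2. Mbp is best known from myelin, and its locus also has transcripts that other cells use. It was at 56.8 and 59.4 CPM in WT and 57.4 and 52.9 CPM in KO, with no count of the glial marker Sox10 in any library.

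Per length, the neighbours spanned 0.0263 to 115 CPM per kb of exon (mean of 4 libraries), with a median of 5.23 against 3.98 for all tested genes. The ribosomal protein gene Rpl17 led with 115 ± 30.9 CPM per kb (SD over 4 libraries), followed by Atp8b1 with 86.7 ± 5.41. Their ranges over the libraries overlapped (87.9 to 159 and 78.6 to 90.2 CPM per kb), so their order is not fixed. Mbd2 (54.4 ± 2.85) and Nars (50.9 ± 3.99) came next and also overlapped. Chmp1b, a subunit of the ESCRT-III membrane scission complex, had 41.3 ± 5.90 CPM per kb, and its range of 35.4 to 49.5 overlapped that of Nars. Rpl17 varied most within a genotype among the 5, with 211 and 135 CPM in WT and 150.2 and 117 CPM in KO (log2 change -0.38 with an SE of 0.235, edgeR adjusted p = 0.359). Ribosomal protein genes have many near-identical copies in the genome, so the Rpl17 counts are uncertain. Lengths are unions of all annotated exons, so genes with long rare exons are understated. Levels per length along the interval are shown in the plot of level by distance, where genes that passed sit among genes that did not.

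**Figure D4:**
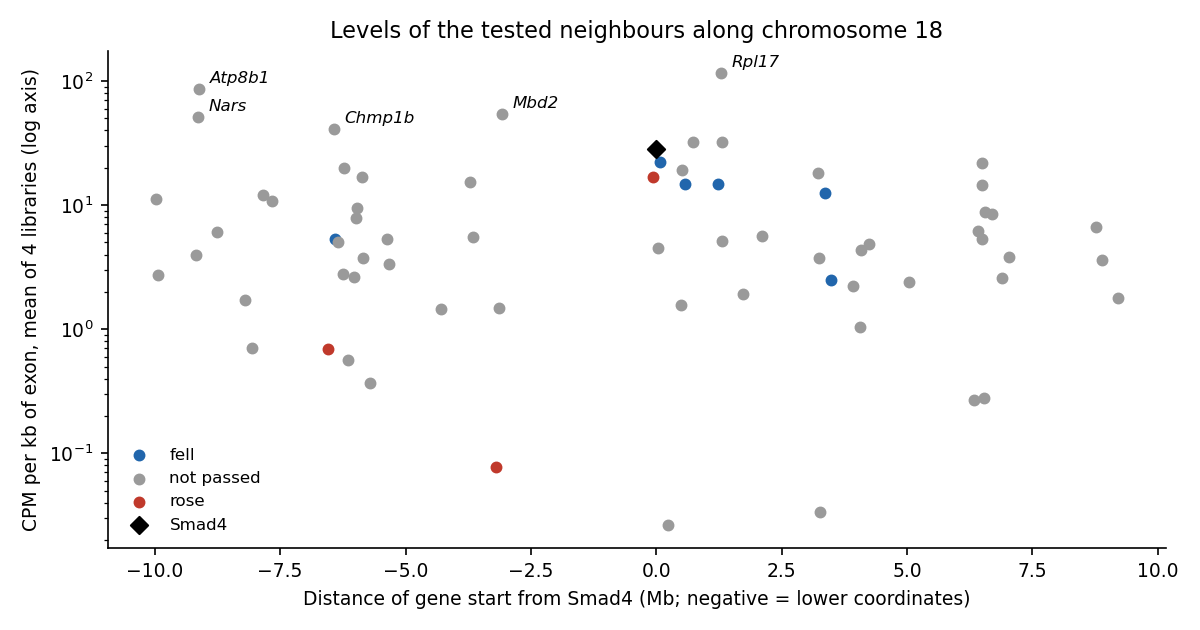
Level of the 68 tested neighbours in CPM per kb of exon, as a mean of 4 libraries on a log axis (y axis), against distance from Smad4 in Mb (x axis); colours mark genes that rose, fell or did not pass, and the diamond is Smad4. Rpl17, at 115 CPM per kb, is the highest, and the Spearman rho of level with distance is 0.06.

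The calls differed in how much they rested on single libraries. Gnal, Me2, Lipg and St8sia5 passed whichever 1 of the 4 libraries was left out. Their largest edgeR adjusted p in those fits were 0.0228, 0.0315, 0.0121 and 0.00468. Mex3c and Mbd1 passed in 3 of the 4, Pias2 in 2, Mppe1 in 1 and 4930503L19Rik in none. For Mex3c the edgeR adjusted p was 0.0530 when KO replicate 1 was left out. No log2 fold change of these 9 turned sign in any fit. The log2 fold change of St8sia5 lay between -4.71 and -3.95 when a library was left out, and that of Lipg between -1.22 and -1.18. Fewer genes passed over the whole table too in the fits without KO replicate 1 or without KO replicate 2. A call lost there thus need not be a trait of the gene.

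**Figure D5:**
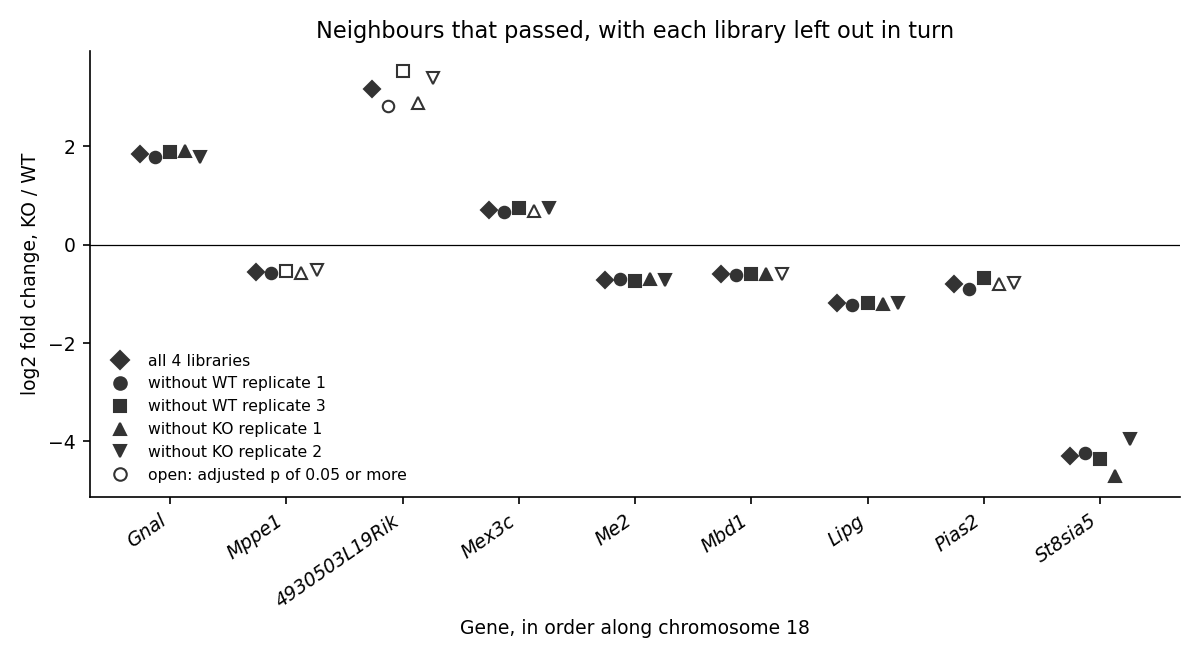
Log2 fold change of KO against WT (y axis) of the 9 neighbours that passed (x axis, in the order along chromosome 18), with all 4 libraries and with each library left out in turn; filled symbols have an edgeR adjusted p under 0.05 and open symbols do not. Gnal, Me2, Lipg and St8sia5 are filled throughout, and the values of each gene stay on the same side of 0.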

How the data were processed

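The authors deposited 1 table of whole-number counts per Ensembl gene ID for 4 libraries, not normalized. HISAT2 2.1.0, StringTie 1.3.3b, SAMtools 1.9 and FastQC are listed, with build GRCm38 (mm10), per the submitters' processing notes. No source used here states how reads were assigned to genes or whether strand was used. GENCODE M21 (GRCm38) gave symbols, positions and exons for 31207 of 31227 IDs.

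Genes passing edgeR's filterByExpr (15838) were TMM-scaled, and edgeR 4.0.16 (glmQLFTest in R 4.3.3, genotype as the only term) tested them, with Benjamini-Hochberg adjustment over all of them and a threshold of 0.05. The SE is the log2 fold change divided by the square root of F. On simulated data with 200 changed genes (5 runs, about 15387 genes tested) it recovered 8.92%, 46.9% and 74.3% of 1.5-fold, 2-fold and 4-fold changes, and 12.9% of calls were false. In the real data 2412 genes were called, many more than the 200 changed there, so these rates need not hold here. Exons of 33 of the 97 neighbours overlap another gene's, so their counts are uncertain.

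The members, role lists and markers were chosen with earlier results of these data known. The value of 1 marker is not reported here. Named genes were the 5 nearest tested on each side, those that passed at a mean of 1 CPM or more (up to 12 in each direction), up to 4 of each role list by p and the 5 highest per kb. Others named were chosen after their values were seen. Alternatives were DESeq2 size factors, upper-quartile and total normalization, no filter and a 1 CPM filter, DESeq2 1.42.0, limma-voom (limma 3.58.1), each library left out, genes without exon overlap, a window of 5 Mb and a 1.5-fold minimum.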

Additional observations from a re-analysis of the deposited data

How the results depend on the processing

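Of 68 neighbours, DESeq2's Wald test called 6 as higher and 10 as lower, 11 of them under 5 Mb and 5 at 5 to 10 Mb. It called 21.8% of all tested genes, with 1524 as lower. With no filter on low counts 5 of 84 tested neighbours rose and 6 fell, beside 13.6% called among all genes of that fit. With library totals 4 passed at 5 to 10 Mb, when 15.4% of all tested genes passed. The median log2 fold change of the neighbours was then -0.0398. Of 41 tested neighbours without exon overlap 1 rose and 4 fell (12.2%), beside 15.2% called among all tested genes. When each library was left out in turn, 511 to 1491 genes rose and 407 to 1070 fell over the whole table, and 1 to 3 neighbours rose and 3 to 6 fell. Neighbours that passed numbered 4 to 7 under 5 Mb and 1 to 2 beyond. The lowest counts over the whole table came without a KO library. Smad4 stayed called in all alternatives. With the 6 genes left out by the rule added back, an alternative chosen after seeing the data, 4 rose and 7 fell.

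Signs turned only for named genes that did not pass. Leaving out a library gave log2 fold changes of -0.20 to 0.27 for Ska1, -0.0034 to 0.19 for Atp8b1, -0.22 to 0.18 for Poli, -0.0014 to 0.29 for Zbtb7c, -0.23 to 0.0209 for Cep192, -0.0026 to 0.14 for Mbd2, -0.0022 to 0.25 for Rnmt and -0.0235 to 0.23 for Haus1. With library totals Ska1 was at -0.0273. The cause of these shifts was not tested. No paired analysis was possible because the genotypes share only 1 replicate number. With 2 libraries per genotype, a gene that did not pass is not shown to be unchanged. Most 1.5-fold changes were missed in the simulated data, where fewer genes changed than were called here.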
